A study of Mus musculus with 6 samples.

Results

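The genes described here are 10 that carry calcium signals to the NFAT transcription factors, measured in H10 and C8 cells on Affymetrix Mouse Gene 1.0 ST arrays. They were chosen by name as the NFAT factors Nfatc1, Nfatc2 and Nfatc3, the calcineurin subunits Ppp3ca, Ppp3cb and Ppp3r1, the calcineurin regulator Rcan1, and the genes of calcium release and entry Itpr2, Stim1 and Orai1. All 10 were measured, each by 1 feature (a set of probes for a transcript), of 19930 genes and 35545 features in all. H10 and C8 cells are both RAW264.7 macrophage lines that stably carry Lifeact-mEGFP, a fluorescent label of actin, and a puromycin resistance gene. H10 cells fused into multinucleated osteoclasts and C8 cells did not fuse, as the study scored on a later day of culture than that of these arrays. Each line was grown from a resistant clone, so each phenotype rests on 1 line. Both lines received sRANKL, the soluble form of the osteoclast-inducing cytokine, at 60 ng/mL for 2 days, and 3 arrays were made of each. Neither an untreated culture nor another time is among these arrays, so they compare the lines and not the response to sRANKL. Whether separate cultures lie behind the 3 arrays of each line is not stated in the sources used here, and the spread that the p-values rest on may then be technical only.

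RANKL, together with receptors that signal through ITAM adaptors, activates phospholipase Cγ, and the inositol trisphosphate that this enzyme makes opens IP3 receptors in the endoplasmic reticulum. The loss of calcium from the store is sensed by STIM1, which opens ORAI1 channels in the plasma membrane. Calcium and calmodulin then activate the phosphatase calcineurin, which removes phosphates from NFAT factors so that they enter the nucleus. NFATc1 is the chief transcription factor of osteoclastogenesis (OCG) and is known to raise its own transcription. Much of this regulation acts on the protein and on its place in the cell, which arrays of RNA do not measure.

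The 10 genes differed little between the lines, with the exception of Rcan1. By limma, adjusted over all features by Benjamini-Hochberg, 0 of the 10 were higher and 0 were lower in H10 cells at an adjusted p under 0.05. Over all features, 2.12% passed this test, 1.36% as higher and 0.757% as lower, and among all genes 2.9% passed. At an unadjusted p under 0.05, 1 of the 10 passed, Rcan1, against 11.9% of all features. The log2 fold changes, given as H10 minus C8, were positive for 5 genes and negative for 5, with a median of 0.00, and the median over all features was -0.02. For the 9 genes other than Rcan1, the log2 fold changes lay between -0.12 and 0.24. Of all features, 86.3% lay within 0.24 of no difference in either direction, so a small difference is not particular to these genes. The 95% intervals of the 9 genes lay between -0.35 and 0.49. A difference of more than 1.40-fold upward, or to less than 0.787-fold, was thus outside the interval of each of them. All 10 features were brighter than the table median of 7.70, and their mean log2 values lay between the percentiles 63.3 and 94.5 of all features. The values are log2 values that the authors normalized with RMA. Each array's median was between 7.65 and 7.74.

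**Figure D1:**
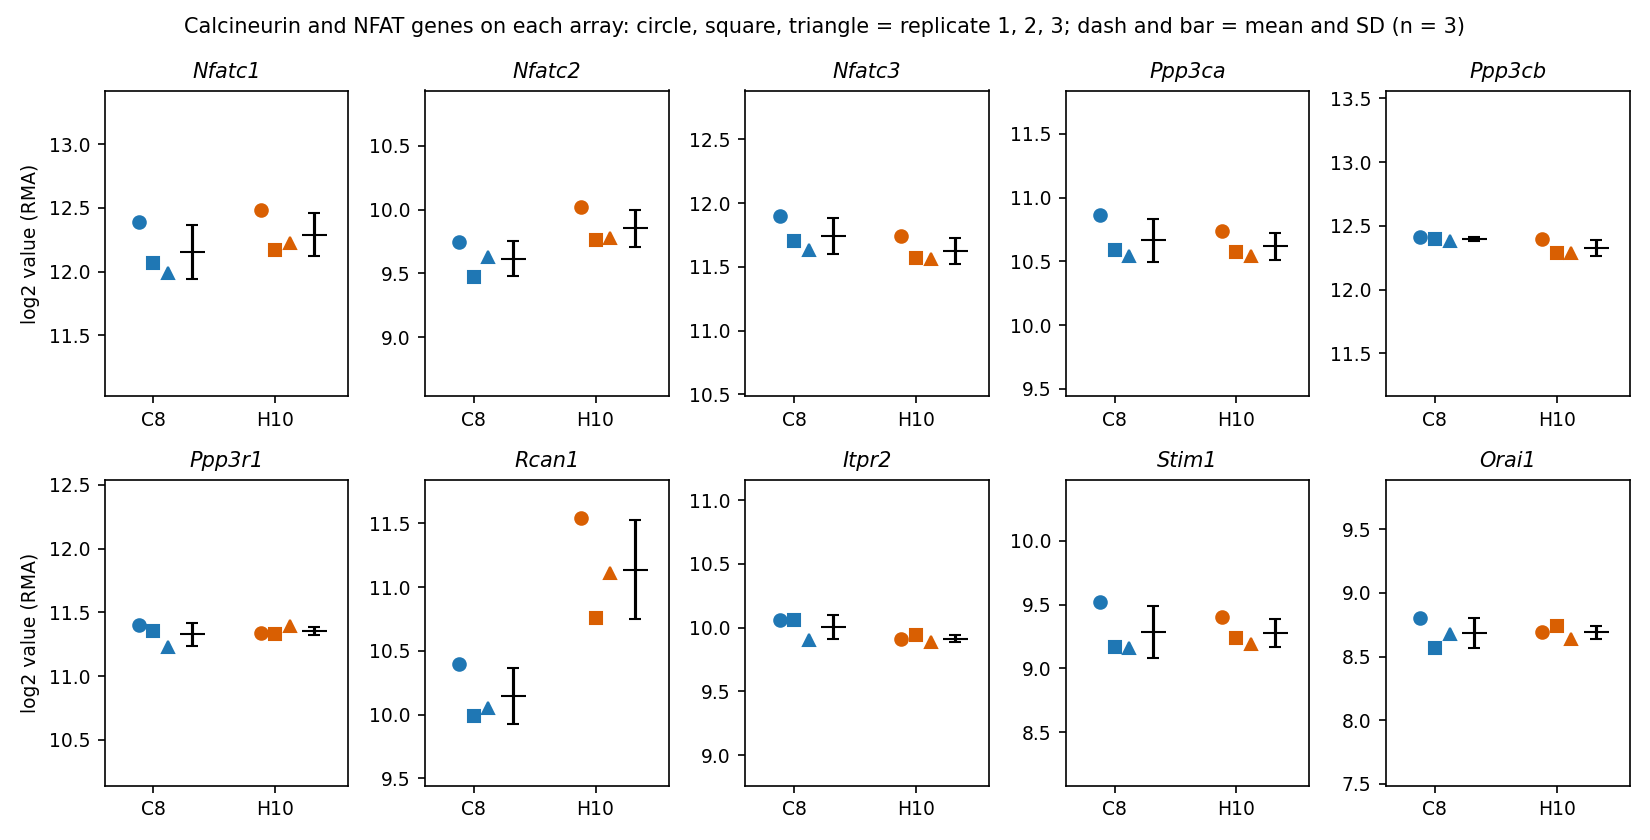
Log2 value (RMA) of each of the 10 genes on the arrays of C8 (blue) and H10 cells (orange), with circles, squares and triangles for replicates 1, 2 and 3 and each line's mean and SD (n = 3); every panel spans the same range of log2 units. The H10 arrays lie above the C8 arrays for Rcan1, by a small margin for Nfatc2, and the lines overlap for the other 8 genes.

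Among the NFAT factors, Nfatc1 was bright in both lines. Its log2 values were 12.48, 12.17 and 12.22 in the H10 samples and, in the C8 samples, 12.39, 12.07 and 11.99. The lines overlapped, since C8 replicate 1 was above H10 replicates 2 and 3. The means were 12.29 ± 0.17 (SD, n = 3) in H10 and 12.15 ± 0.21 (SD, n = 3) in C8 cells. The difference was 0.14 on the log2 scale (standard error 0.13, adjusted p = 0.808 from limma). The 95% interval ran from -0.18 to 0.46, or from 0.884-fold to 1.37-fold. Leaving out 1 array moved the difference from 0.045, without H10 replicate 1, to 0.26, without C8 replicate 1 (adjusted p = 0.970 and 0.391 from limma). Replicate 1 was the highest array of each line, and without both replicate 1 arrays the log2 fold change was 0.17 (95% interval -0.01 to 0.34, adjusted p = 0.407 from limma). The feature's annotation lists several transcripts of Nfatc1, so the array value does not separate the isoforms that arise from its different promoters.

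Nfatc2, a factor that is present before stimulation in many blood cells, had log2 values of 10.02, 9.76 and 9.78 in H10 cells against 9.75, 9.47 and 9.63 in C8 cells. The lines did not overlap, but the lowest H10 value was only just above the highest C8 value. Over all features, 6.96% had every H10 array above every C8 array and 10.1% the reverse. Of the 10 genes, 2 had the first order, Rcan1 and Nfatc2, and 0 the second. The log2 fold change of Nfatc2 was 0.24 (standard error 0.11, 95% interval -0.02 to 0.49, adjusted p = 0.457 from limma). The interval lay above 0 without C8 replicate 1 (0.03 to 0.57) and with the replicate number as a block (0.05 to 0.42). It also did without both replicate 1 arrays (0.0024 to 0.44) and after quantile normalization (0.0013 to 0.45). In the other alternative fits it included 0, and over all of them the adjusted p from limma was 0.271 to 0.742. Nfatc3, another calcineurin-dependent factor, had 11.74, 11.57 and 11.56 in H10 cells against 11.90, 11.70 and 11.63 in C8 cells. These values overlapped, and the log2 fold change was -0.12 (standard error 0.09, 95% interval -0.35 to 0.11, adjusted p = 0.753 from limma).

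Calcineurin is a dimer of a catalytic A subunit, encoded here by Ppp3ca or Ppp3cb, and a regulatory B subunit that binds calcium, encoded by Ppp3r1. Ppp3ca had log2 values of 10.74, 10.57 and 10.54 in H10 cells against 10.86, 10.59 and 10.54 in C8 cells. Ppp3cb had 12.40, 12.29 and 12.29 in H10 cells against 12.41, 12.40 and 12.38 in C8 cells. Ppp3r1 had 11.34, 11.33 and 11.39 in H10 cells against 11.40, 11.35 and 11.23 in C8 cells. For each of these subunits the lines overlapped. The log2 fold changes were -0.05 for Ppp3ca (95% interval -0.30 to 0.21), -0.07 for Ppp3cb (95% interval -0.22 to 0.08) and 0.03 for Ppp3r1 (95% interval -0.14 to 0.19). The adjusted p from limma was 0.941, 0.782 and 0.949. Whether the probes of the A subunits also read each other's transcripts was not tested.

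Rcan1 encodes a small protein that binds calcineurin and restrains it, and its shorter transcript is known to be induced by NFAT itself, a negative feedback. Its log2 values were 11.54, 10.76 and 11.11 in the H10 samples and, in the C8 samples, 10.40, 9.99 and 10.05. Every H10 array was above every C8 array, and replicate 1 was the highest array in each line. The means were 11.14 ± 0.39 (SD, n = 3) in H10 and 10.15 ± 0.22 (SD, n = 3) in C8 cells, which differ 1.99-fold. The log2 fold change of 0.99 (standard error 0.21, 95% interval 0.49 to 1.49) had an unadjusted p = 0.00252 and an adjusted p = 0.0833 from limma, so it did not pass. Of all features, 0.976% differed by as much or more in either direction. With only the 17939 features above the table median on at least 3 arrays, the same difference had an adjusted p = 0.0316 from limma, and 3.71% of those features were then called higher in H10 cells. Without both replicate 1 arrays it was 0.92 (adjusted p = 0.0828 from limma).

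**Figure D2:**
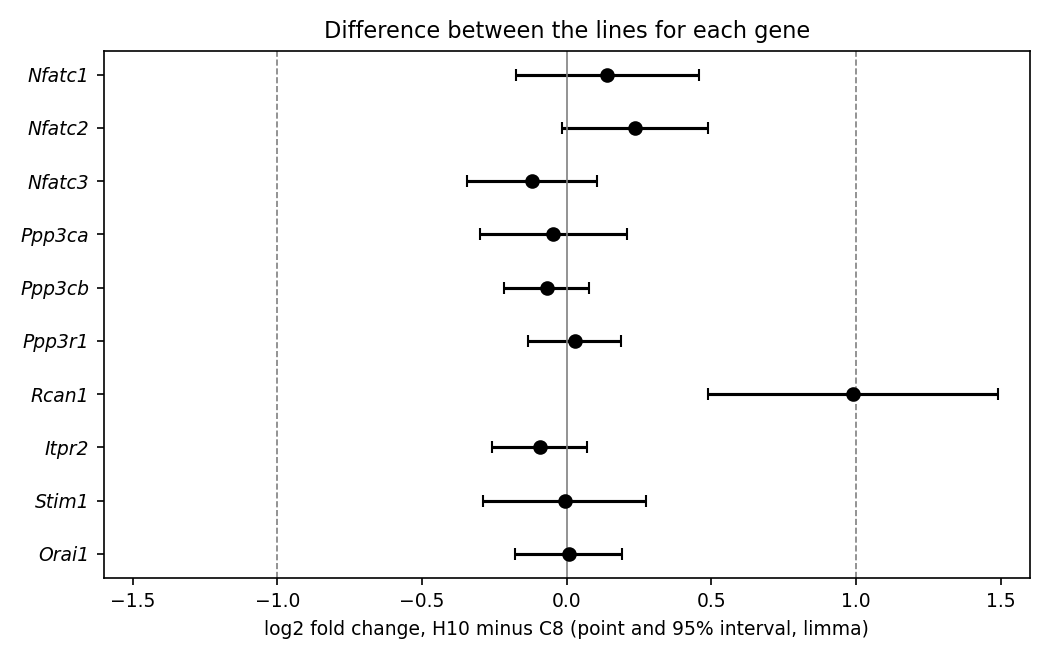
Log2 fold change of each of the 10 genes, H10 minus C8, with its 95% interval from limma; the solid line marks no difference and the dashed lines a 2-fold difference in each direction. The interval of Rcan1 runs from 0.49 to 1.49, and those of the other 9 genes include 0.

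The RefSeq promoter table of GRCm38.p6 lists 2 transcription starts for Rcan1, and the annotation of its feature lists both RefSeq transcripts of the gene. The array value is therefore a sum over the transcripts and does not say which start is used. Both promoters are shown because Rcan1 had the largest difference of the 10 genes. Each sequence is the 250 bases upstream of a start, written 5′ to 3′ on the minus strand, the strand of the gene. The first lies inside the gene, at chr16:92400079-92400328, and the second is the start farther upstream, at chr16:92466170-92466419. Capitals mark GGAAA, the core that NFAT proteins bind, or its complement TTTCC, and TGANTCA, the site of AP-1, the partner of NFAT on many genes, searched on both strands.
Rcan1, inner start: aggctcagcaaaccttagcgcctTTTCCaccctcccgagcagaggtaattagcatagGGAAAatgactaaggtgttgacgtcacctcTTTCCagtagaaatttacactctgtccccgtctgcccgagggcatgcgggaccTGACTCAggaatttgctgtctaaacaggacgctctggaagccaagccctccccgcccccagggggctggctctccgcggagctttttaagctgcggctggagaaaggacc
Rcan1, outer start: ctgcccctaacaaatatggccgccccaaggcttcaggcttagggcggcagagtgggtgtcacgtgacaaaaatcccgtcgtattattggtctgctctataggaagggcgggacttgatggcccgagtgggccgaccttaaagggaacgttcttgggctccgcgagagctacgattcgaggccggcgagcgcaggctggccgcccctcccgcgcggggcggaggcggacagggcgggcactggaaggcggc

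The inner promoter held 3 NFAT cores, which begin 227, 193 and 163 bases before the start, and 1 AP-1 site, which begins 110 bases before it. None of these matches overlap. The outer promoter held 0 of either. Of 32851 promoter windows of the same length in the table, 6.39% held at least 3 NFAT cores, 55.6% at least 1, and 6.75% at least 1 AP-1 site. The core is short and contains GGAA, which ETS factors also bind, so a match describes letters and not a binding site.

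Of the 10 genes, 8 had promoters in the table, 11 in all, and Nfatc1 and Ppp3ca had none. Of these 11 promoters, that of Ppp3cb and the outer promoter of Nfatc2 also held 3 NFAT cores, while the inner promoter of Nfatc2 and 1 promoter of Nfatc3 held 1. Those of Ppp3r1, Itpr2, Stim1 and Orai1 held 0. The outer promoter of Nfatc2, at chr2:168601658-168601907 on the minus strand, is shown with its cores in capitals because Nfatc2 was the other gene whose lines did not overlap. The inner promoter of Nfatc2, with fewer cores, is not shown. Whether the cores bear on the difference between the lines was not tested.
Nfatc2, outer start: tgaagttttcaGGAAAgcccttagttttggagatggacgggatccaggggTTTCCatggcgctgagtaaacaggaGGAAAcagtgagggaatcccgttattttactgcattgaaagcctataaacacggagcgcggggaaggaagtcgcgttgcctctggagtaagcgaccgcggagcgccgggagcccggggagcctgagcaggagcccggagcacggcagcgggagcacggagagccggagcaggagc

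Its cores begin 239, 200 and 175 bases before the start, and no AP-1 site was found in it. Ppp3cb, whose promoter held as many cores, had a log2 fold change of -0.07.

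**Figure D3:**
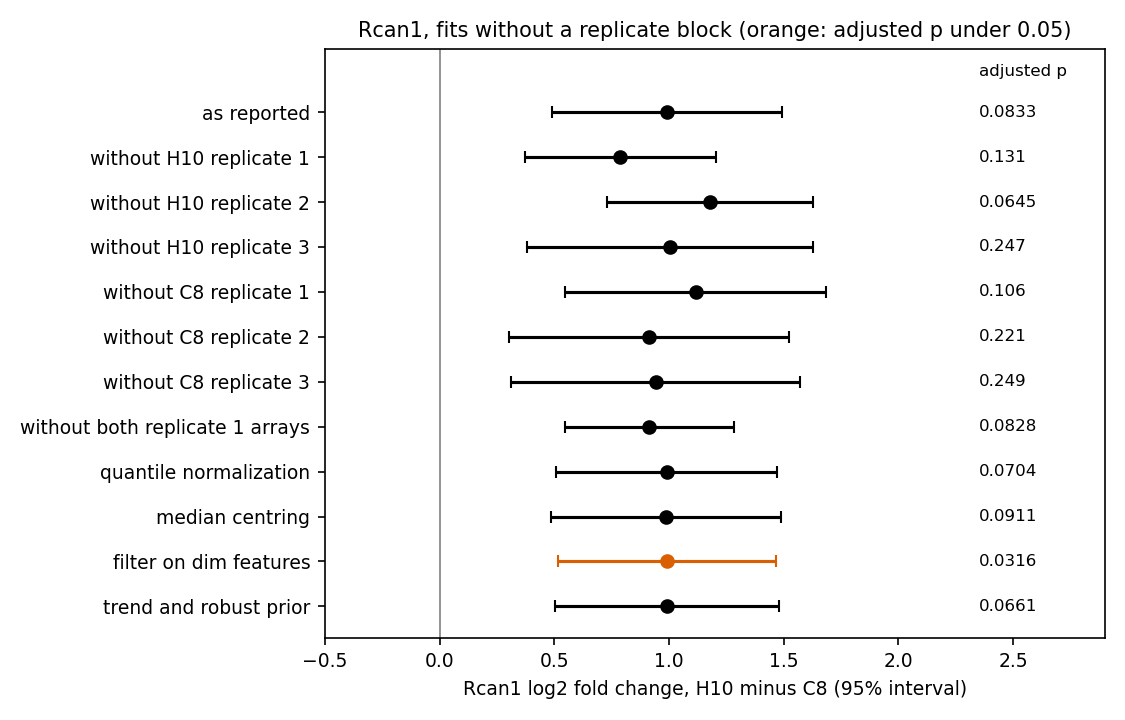
Log2 fold change of Rcan1, H10 minus C8, with its 95% interval and, at the right, its adjusted p, as reported and under 11 other fits; orange marks an adjusted p under 0.05. The fit with the replicate number as a block, which also passed, is not drawn. The difference lay between 0.79 and 1.18 and passed the threshold in 1 of the fits drawn, that on bright features.

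The genes of calcium release and entry did not pass the test. Itpr2, a receptor for inositol trisphosphate that releases calcium from the endoplasmic reticulum, had log2 values of 9.91, 9.94 and 9.89 in H10 cells against 10.06, 10.06 and 9.90 in C8 cells. C8 replicates 1 and 2 were the highest arrays, and the log2 fold change was -0.09 (standard error 0.07, 95% interval -0.26 to 0.07, adjusted p = 0.728 from limma). Stim1, the calcium sensor of the store, had 9.40, 9.24 and 9.19 in H10 cells against 9.52, 9.17 and 9.16 in C8 cells. Orai1, the pore of the plasma membrane channel, had 8.69, 8.74 and 8.64 in H10 cells against 8.80, 8.57 and 8.68 in C8 cells. The highest array for each of these was C8 replicate 1. The log2 fold change was -0.0067 for Stim1 (95% interval -0.29 to 0.27, adjusted p = 0.992) and 0.0067 for Orai1 (95% interval -0.18 to 0.19, adjusted p = 0.988), both from limma. These signs are within the error and turned when single arrays were left out.

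The arrays of a line varied in a like way for several of the 10 genes. Replicate 1 was strictly the highest array in both lines for 7 of them, Nfatc1, Nfatc2, Nfatc3, Ppp3ca, Ppp3cb, Rcan1 and Stim1, against 17.5% of all features. Within H10 cells this array was the highest for 7 of the 10 genes (39.5% of all features), and within C8 cells for 9 (37.3%). The part that this has in the differences between the lines was not tested beyond the fits without these arrays. Without both of them, the log2 fold changes of the 9 genes other than Rcan1 lay between -0.10 and 0.22.

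The genes whose values were closest to those of Nfatc1 over the 6 arrays were sought among 11188 genes brighter than the table median. Closeness was the root mean square distance of the log2 values, each gene centred on its own mean. The 5 closest were Enox2, Ctnnbip1, Rab11fip1, Ncoa7 and Trio, at distances of 0.0263 to 0.0362, where Nfatc1 itself varied by 0.17 about its mean. Each of the 5 was highest on replicate 1 in its line, as Nfatc1 was, and their log2 fold changes lay between 0.12 and 0.20. Both traits follow from choosing the genes by these same values and are not a separate result. Among 11188 genes on 6 arrays, some close matches can arise without a link to Nfatc1, and a link was not tested. Of the other 9 calcineurin and NFAT genes, Stim1 was the closest, at 0.0879, with 323 genes closer, and Rcan1 the farthest, at 0.45, with 10886 genes closer.

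Other genes of the pathway were taken from 9 lists, which hold 105 measured genes. All of these lists were written with earlier results of these data known, so their counts are not independent evidence. In the lists nearest to the 10 genes, which are the other NFAT genes, the other genes of calcineurin, of calcium release and entry, of calcium pumps and stores, and the NFAT kinases, 0 of 53 were higher and 0 lower by the same test, beside 1.85% of all genes higher and 1.04% lower. Brighter than the table median were 2 of 3, 10 of 12, 11 of 15, 10 of 11 and 11 of 12 genes, in this order of lists. In the dimmer genes a difference could be missed. The 3 other NFAT genes had a median log2 fold change of -0.03, the same as over all genes. Among them, Nfat5, a factor of osmotic stress that does not need calcineurin, had 12.21, 12.24 and 12.23 in H10 cells against 12.44, 12.62 and 12.46 in C8 cells. Its lines did not overlap, and its log2 fold change was -0.28 (95% interval -0.45 to -0.11, adjusted p = 0.137 from limma). Nfatc4 and Nfatc2ip had -0.03 and -0.01, and the feature of Nfatc4 was dim, with means of 7.52 in H10 and 7.54 in C8 cells.

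The 12 other calcineurin genes had a median of 0.05 and a range from -0.02 to 0.18. Ppp3cc, a further catalytic subunit, had 0.18 (adjusted p = 0.404 from limma), Ppp3r2 0.05, and Rcan2, a relative of Rcan1, 0.09. The features of Ppp3r2 and Rcan2 were dim in both lines, with means of 5.13 and 6.81 in H10 cells, so a difference in them could be missed. The 15 other genes of calcium release and entry had a median of -0.03, with 0.18 for the IP3 receptor Itpr3, 0.00 for Ryr1 and -0.06 for Ryr2, the latter pair ryanodine receptors. The feature of Ryr2 was dim too, with means of 7.06 in H10 and 7.12 in C8 cells, and that of Ryr1 was at 7.86 in each line. The 11 genes of calcium pumps and stores also had a median of -0.03, and the SERCA pump genes Atp2a1, Atp2a2 and Atp2a3, which refill the endoplasmic reticulum, had -0.04, -0.13 and -0.38 (adjusted p = 0.944, 0.415 and 0.261 from limma). The 12 genes of NFAT kinases and export, which return NFAT to the cytoplasm, had a median of -0.02. The kinase genes Dyrk1a, Dyrk1b and Dyrk2 had -0.04, -0.05 and 0.38. Lrrk2, a kinase that is also known to restrain NFAT, had -0.60 (adjusted p = 0.0673 from limma, and 0.0247 with bright features only); it was named after its value was seen.

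**Figure D4:**
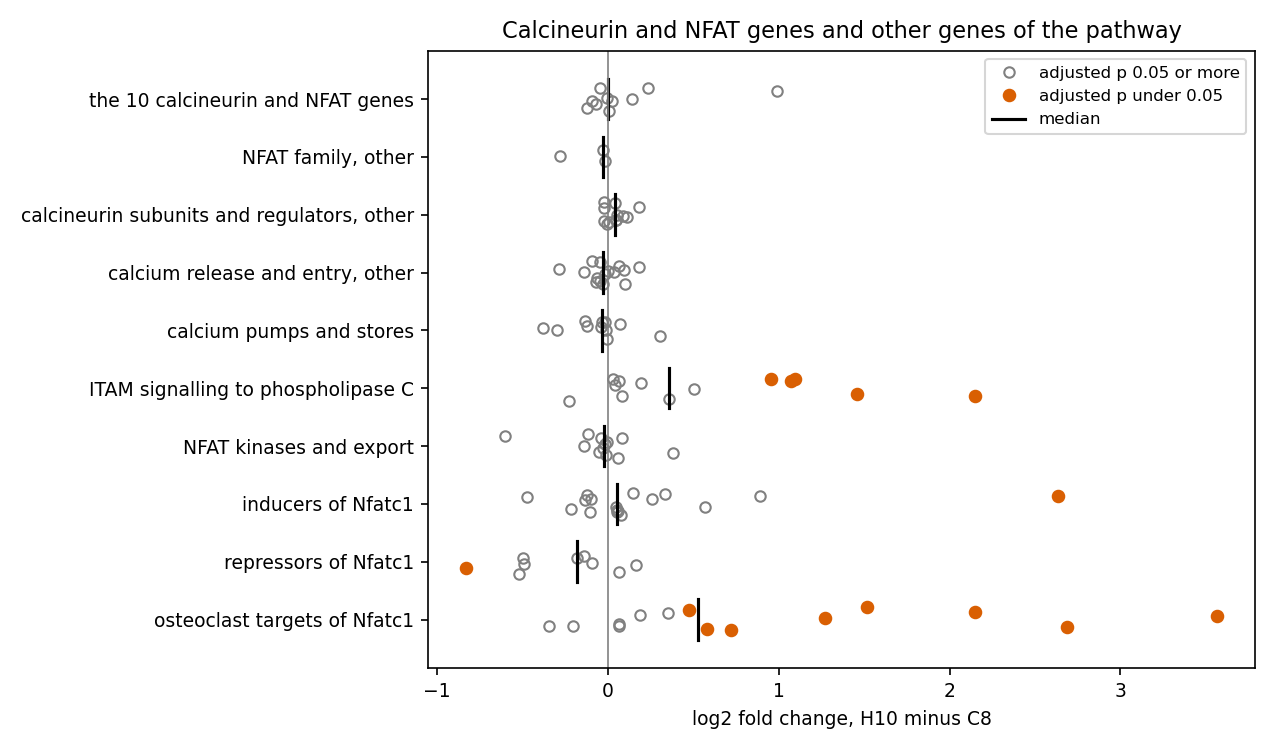
Log2 fold change, H10 minus C8, of the 10 calcineurin and NFAT genes and of the genes of 9 pathway lists, 1 point per gene, with filled points for an adjusted p under 0.05 from limma and a bar at the median of each list. Filled points appear among the ITAM genes, the inducers, the repressors and the targets of Nfatc1, and in no other list.

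Upstream of calcium release, 5 of 13 genes of ITAM signalling to phospholipase C were higher and 0 lower in H10 cells. Of all genes, 1.85% were higher and 1.04% lower. The list's median was 0.36. Since the list was written with earlier results of these data known, its count describes these arrays and is not independent evidence. Oscar, a co-stimulating receptor that the study named from these arrays, had 2.15 (standard error 0.18, adjusted p = 0.00342). Blnk, an adaptor that brings phospholipase Cγ to its kinases, rose by 1.46 (standard error 0.18, adjusted p = 0.0127). Its log2 values were 10.07, 10.60 and 10.51 in H10 cells against 8.65, 9.14 and 9.01 in C8 cells. Syk, the kinase that binds phosphorylated ITAMs, had 10.40, 10.68 and 10.77 in H10 cells against 9.63, 9.56 and 9.37 in C8 cells, and rose by 1.10 (standard error 0.12, adjusted p = 0.00843). The remaining genes that passed, named after their values were seen, were the receptor Trem2, with 1.07 (adjusted p = 0.0103), and the kinase Src, with 0.95 (adjusted p = 0.0490), all from limma. The ITAM adaptors Tyrobp and Fcer1g had 0.06 and 0.08 and the receptor Pirb 0.36 (adjusted p = 0.846, 0.884 and 0.246 from limma). Plcg1 and Plcg2, which encode phospholipase Cγ itself and were picked out after their values were seen, had 0.04 and 0.19 (adjusted p = 0.902 and 0.421 from limma). The lowest value of the list was that of the adaptor gene Lcp2, -0.23 (adjusted p = 0.167 from limma), also named after its value was seen. Its means were 12.96 in H10 and 13.18 in C8 cells. With an intensity trend and a robust prior, it passed as lower in H10 cells (adjusted p = 0.0398 from limma). The count of 5 was 2 without H10 replicate 2, and 3 without H10 replicate 3, C8 replicate 2 or C8 replicate 3. In these fits, in this order, 187, 152, 159 and 174 of all genes were higher, against 369 as reported. The call of Blnk was lost on leaving out H10 replicate 2 or 3 or C8 replicate 3 (adjusted p = 0.0537 to 0.0700 from limma). That of Trem2 was lost without H10 replicate 2, C8 replicate 2 or both replicate 1 arrays (adjusted p = 0.0511 to 0.0655 from limma). Src passed in 1 of the 6 fits that left out an array, that without C8 replicate 1, and had an adjusted p = 0.125 to 0.191 in the others and 0.0722 after median centring, all from limma.

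Of 17 genes that induce Nfatc1, 1 was higher and 0 were lower, beside 1.85% of all genes higher and 1.04% lower. The higher gene was Prdm1, a repressor of inhibitors of OCG that the study also named, with 2.63 (standard error 0.16, adjusted p = 0.00119 from limma). Its C8 values, 7.27, 7.04 and 7.12, were below the table median, and how far they stood above background was not measured, so the difference may be understated. The median of this list was 0.06. RANK, encoded by Tnfrsf11a, had 0.26 and its adaptor Traf6 0.15 (adjusted p = 0.396 for each from limma). Fos, the AP-1 subunit that is needed for Nfatc1 induction, had 11.04, 10.31 and 10.64 in H10 cells against 10.37, 9.49 and 9.46 in C8 cells. These overlapped at H10 replicate 2 and C8 replicate 1, and its log2 fold change was 0.89 (standard error 0.29, 95% interval 0.19 to 1.59, adjusted p = 0.269 from limma). Of 9 repressors of Nfatc1, 0 were higher and 1 was lower, beside the same shares of all genes, and the median was -0.18. The lower gene was Bcl6, which fell by 0.83 (standard error 0.11, adjusted p = 0.0151 from limma). The log2 values of Bcl6 were 9.74, 9.79 and 9.82 in H10 cells against 10.38, 10.72 and 10.74 in C8 cells. This call was lost when any 1 of the H10 arrays, or C8 replicate 2 or 3, was left out (adjusted p = 0.0583 to 0.0743 from limma), which leaves a count of 0. Irf8 and Rbpj, further repressors, had -0.52 (adjusted p = 0.0943) and -0.49 (adjusted p = 0.0676) from limma, and with bright features only both passed (adjusted p = 0.0366 and 0.0248). Id1 had 0.06.

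Of 14 osteoclast genes known as NFATc1 targets, 8 were higher and 0 lower in H10 cells, and the median was 0.53. Of all genes, 1.85% were higher and 1.04% lower. The largest differences were those of Ctsk, the collagen-degrading protease cathepsin K, Ocstamp, a membrane protein of fusion, and Oscar, with 3.57, 2.69 and 2.15 (adjusted p = 0.000138, 0.0292 and 0.00342 from limma). The list was written with earlier results of these data known, so none of the 8 gives independent evidence of which way it moved. The study named 4 of the 8 from these arrays, Ctsk, Oscar, Dcstamp and Ocstamp. Oscar is also counted among the ITAM genes above. The other 4, named after their values were seen, were the proton pump subunit Atp6v0d2 with 1.52, the chloride transporter Clcn7 with 0.72, Siglec15 with 0.58 and Acp5, which encodes TRACP, with 0.47 (adjusted p = 0.0103, 0.0339, 0.0397 and 0.0330 from limma). The integrin subunit Itgb3 and the calcitonin receptor Calcr had 0.06 and 0.07, and Mmp9, a gelatinase, had -0.34 (adjusted p = 0.854, 0.802 and 0.534 from limma). The features of Itgb3 and Calcr were dim, with mean log2 values of 7.69 and 6.93 in H10 cells. The count of 8 was 5 without both replicate 1 arrays. It was also 5 without H10 replicate 1, 4 without H10 replicate 2 or C8 replicate 2 or 3, and 3 without H10 replicate 3. In these fits, and without both replicate 1 arrays, 152 to 310 of all genes were higher, against 369 as reported. The call of Ocstamp was lost when any 1 of the H10 arrays, or C8 replicate 2 or 3, was left out (adjusted p = 0.0652 to 0.122 from limma). Clcn7, Siglec15 and Acp5 each passed in 1 of the 6 fits that left out an array, and in the others had an adjusted p = 0.0878 to 0.138, 0.0925 to 0.169 and 0.105 to 0.161 from limma. Without both replicate 1 arrays, the calls of Siglec15, Acp5 and Atp6v0d2 were lost (adjusted p = 0.204, 0.0603 and 0.0506 from limma). The call of Atp6v0d2 was also lost without H10 replicate 3 or C8 replicate 3 (adjusted p = 0.0586 and 0.0515 from limma), that of Siglec15 after quantile normalization (adjusted p = 0.0502 from limma) and that of Acp5 after median centring (adjusted p = 0.0643 from limma).

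Of 11 markers of macrophages, 8 had a mean over the 6 arrays above the table median. Csf1r, the receptor of M-CSF, and Cd68 had means of 13.24 and 13.63 in H10 cells, against 13.33 and 13.59 in C8 cells. The macrophage marker Adgre1 rose by 2.02 in H10 cells (adjusted p = 0.00114 from limma), from a C8 mean of 7.56 that was below the table median, and the protease gene Ctss by 0.86 (adjusted p = 0.0376 from limma), though the call of Ctss was lost on leaving out H10 replicate 2 or 3 or any 1 of the C8 arrays. Itgam, a subunit of an integrin of myeloid cells, had 0.51 (adjusted p = 0.142 from limma), and passed without C8 replicate 1 or without both replicate 1 arrays (adjusted p = 0.0215 and 0.0469 from limma). Since NFAT and calcineurin are prominent in lymphocytes and mast cells, markers of those cells were examined. Such means were above the table median for 1 of 10 genes of T and NK cells, 0 of 7 of B cells and 0 of 7 of mast cells and basophils. The same held for 0 of 7 neutrophil, 2 of 7 dendritic cell and 4 of 6 fibroblast and osteoblast markers. Of these 6 lists, 0 genes passed the test, beside 2.9% of all genes. Among the 19930 genes in all, 11188 besides Nfatc1 were brighter than the table median. Counts by this cut therefore do not show whether a cell type is present. The mean log2 value per array of the T and NK cell markers was 6.55 to 6.68 in H10 and 6.55 to 6.73 in C8 cells. For the mast cell and basophil markers it was 5.88 to 5.92 and 5.83 to 5.97.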

How the data were processed

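Total RNA of H10 and C8 cells, 3 samples of each line, was labelled and hybridized to Affymetrix Mouse Gene 1.0 ST arrays. The deposited values are log2 values that the authors normalized with RMA, a method that removes background, brings all arrays to 1 distribution and combines each feature's probes. Affymetrix Expression Console is named, without a version, in the submitters' processing notes. The table held 35545 features, with 1 gene symbol for 21781, several for 1621 and none for 12143 by GEO's platform annotation, and the brightest feature stood for a gene. The lines were compared by lmFit and eBayes of limma 3.58.1 (R 4.3.3), two-sided, with Benjamini-Hochberg adjustment over all features, none filtered out, and a threshold of 0.05. By exact permutation, 3 arrays against 3 reach no p below 0.10. The genes and lists were chosen with earlier results of these data known. Listed genes without a feature of 1 symbol, such as Nfkb1, Lyn and Itpr1, were not counted. Named by rule were the 10 genes and the 5 closest to Nfatc1. So were up to 3 genes a list in each direction that passed, and the first 3 of a list that did not. Genes named beyond this rule are marked as named after their values were seen, apart from Dcstamp, Fosl1, Ppargc1b and Tcirg1. Dcstamp was named because the study named it. Fosl1, Ppargc1b and Tcirg1 were named after their values were seen, because their calls changed with the fit. Alternatives were leaving out each array, the replicate number as a block, leaving out both replicate 1 arrays, quantile normalization, median centring, a filter on dim features (17939 kept), and an intensity trend with a robust prior; leaving out each array for the list counts was added after seeing the data. A single simulated table of 35545 features had normal noise with each feature's own SD, and 100 features changed 2-fold and 100 changed 7-fold. On it the fit found 82% of 2-fold and 98% of 7-fold changes, and unchanged features made up 6.25% of its calls. The share of changed features in the real data is not known, so these rates need not hold there. Promoter sequences are those of RefSeq for GRCm38.p6, and the array annotation names no build. Python 3.11.15 and matplotlib 3.10.9 drew the figures.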

Additional observations from a re-analysis of the deposited data

How the results depend on the processing

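The difference of Rcan1 kept its direction under all 12 alternatives (0.79 to 1.18, adjusted p = 0.0316 to 0.249), and passed with the filter on dim features (0.99), where fewer features are tested, and with the replicate block (0.99, adjusted p = 0.0327); under each of these 1 of the 10 genes was higher, against 0 as reported. Leaving out 1 array in turn, Rcan1 ranged from 0.79 to 1.18 and 0 of the 10 genes passed. The signs of 4 genes that did not pass turned: leaving out 1 array gave -0.11 to 0.052 for Ppp3ca, -0.022 to 0.063 for Ppp3r1, -0.068 to 0.11 for Stim1 and -0.05 to 0.065 for Orai1, Stim1 was 0.05 without both replicate 1 arrays, and Orai1 was -0.0022 after quantile normalization. The deviations of same-numbered arrays correlated at 0.17, -0.0043 and -0.12 across features, so the replicate numbers were not taken as pairs. The block gave 290 features higher and 98 lower (225 and 71 genes), against 484 and 269 (369 and 208 genes) as reported, and changed no call of the other 9 genes; of the listed genes, Syk, Trem2, Src, Clcn7, Siglec15 and Acp5 no longer passed with it (adjusted p = 0.0517 to 0.103), and Lrrk2 and Ppargc1b did (0.0460 and 0.0463). Leaving out 1 array gave 183 to 448 features higher and 53 to 166 lower, or 152 to 346 and 40 to 126 genes. Without both replicate 1 arrays 115 features and 78 genes were lower, and with the filter 521 and 423. In the lists, the filter gave 1 NFAT kinase (Lrrk2), 1 inducer (Fosl1) and 3 repressors lower. It also gave 9 targets higher, with Tcirg1 gained (adjusted p = 0.0402 from limma), and without both replicate 1 arrays 5 targets were higher. With the intensity trend and robust prior, Tcirg1, Lrrk2 and Rbpj passed too (adjusted p = 0.0402, 0.0466 and 0.0351 from limma). Rbpj also passed after quantile normalization (adjusted p = 0.0497 from limma). Leaving out 1 array gave 2 to 5 ITAM genes and 3 to 6 targets higher and 0 to 1 repressors lower. Averaging the features of a gene could not change the 10 genes, which have 1 feature each. The cause of these changes was not tested. Background was not measured, and 3 arrays a line limit the precision.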
